A study of Schizosaccharomyces pombe with 8 samples.

Results

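Of the 17962 genomic elements in the deposited table, 62 were classed as small RNAs of the nucleolus or the spliceosome and are described here: 55 elements classed snoRNA and 7 classed snRNA, all taken by that class name. They were measured in 8 small RNA libraries of the fission yeast Schizosaccharomyces pombe, 1 library per strain, made from RNA of 18 to 28 nt cut from gels. Cultures were grown in rich YES medium at 30 °C to an OD600 of 0.5. Every strain carried ade6-hp+, the wild type with no further allele named. The others were Paf1Δ, Leo1Δ and strains labelled Cdc73-G313R, Rot1-Q472Stop, Paf1-G104R, Leo1-W157Stop and, for the last, Paf1-Q264Stop (written Paf-1Q264Stop in the labels). The Paf1 complex, to which Paf1, Leo1 and Cdc73 belong, binds transcribing RNA polymerase II. The 5 point alleles were sequenced as 1 strain each.

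Small nucleolar RNAs guide the chemical modification of ribosomal and spliceosomal RNA. Those of the C/D class direct methylation of the ribose and carry a C box near the start and a D box near the end. Those of the H/ACA class direct the change of uridine to pseudouridine and end with ACA a few bases before their 3′ end. A few, among them U3, U14 and U17, are needed to cut ribosomal RNA out of its precursor. U1, U2, U4, U5 and U6 are the RNAs of the spliceosome, the machine that removes introns. In budding yeast, the Paf1 complex is needed for correct 3′ ends of some snoRNAs.

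Values below are of 2 kinds. A level is the deposited log2 value, with a floor of 3 for an element without reads. Read numbers were recovered from the levels and summed to between 917880 and 6422566 per library. Ratios of levels carry a 95% interval from the read numbers, which covers counting error only and takes each read as independent. It may be too narrow even for that, since several PCR reads can stem from a single molecule when no identifiers mark them. Because a common total lets 1 abundant class lower all others, values were also quantile normalized, and linear levels were divided by the median ratio to wild type of 1410 elements with a mean level of at least 5 and wild-type reads. That ratio was 0.145 in Cdc73-G313R but between 0.629 and 0.990 elsewhere, and values after this division are called rescaled below. This division was chosen after seeing the data. With 1 library per strain there was no spread between replicates, no test and no p-value, and the 7 mutants share the single wild-type library. Strain names stand for library labels throughout. In 3 libraries small RNA was raised over another Paf1 complex gene than the labelled one. Over prf1, the Rtf1 homologue, there were 823 reads in the library labelled Paf1-G104R and 1 in wild type. Cdc73-G313R held 26 reads over paf1 against 7, and Rot1-Q472Stop held 149 reads over cdc73 against 8. Ribosomal RNA elements took 4.28% of the summed linear levels (reads per length) in wild type, between 8.54% and 28.7% in 6 mutants and 60.02% in Cdc73-G313R. Their share of reads was smaller: 0.333% in wild type, between 0.889% and 2.47% in the 6 mutants and 7.98% in Cdc73-G313R.

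The members were first compared with the reference genome (ASM294v3, whose chromosome ends equal those of the table). Of the 55 snoRNA elements, 52 had the same start, end and strand as the reference gene. The exceptions were snR46, which the table places on the plus strand and the reference on the minus strand, and snoZ30 and snR90, which differ in extent. The snoRNA elements were short, with a median of 100 nt and a range of 47 to 653 nt. None of the 7 snRNA elements had the extent of its gene: they were 407 to 799 nt long, against 120 to 256 nt for the genes in the reference. Apart from the intron of U6, which has its own element, their reads were not placed inside or beside the gene. The elements named snu3 and snu32 belong to U3 and U3B, which the reference lists as snoRNAs although the table classes them snRNA.

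The box motifs that mark the ends of these RNAs were searched on both strands of each element, since the table gives 1 strand per element. An H/ACA end was taken as ACA followed by 2, 3 or 4 bases, a D box as CTGA in the last 15 bases and a C box as TGATGA in the first 20. The ACA end was found in 6.35% of all 17962 elements on the strand the table gives and in 6.42% on the other strand. The D box was found in 3.52% and 3.56%, and the C box in 0.651% and 0.668%. Among the 19 snoRNAs annotated as H/ACA, ACA lay at the end of the table strand in 12, of which snR36 also had it on the other strand. In 4 others, snR5, snR10, snR46 and snR96, it lay on the opposite strand only, and in the remaining 3 on neither. Of the 36 snoRNAs not annotated as H/ACA, 28 had the D box on the table strand and 0 on the opposite strand. Those 28 and snoZ30, annotated as C/D, are called C/D below, and the other 7 were given no class. A match is a description of letters, and the strand from which each RNA is made was not measured. How reads were assigned to a strand was not given either. Reads counted at an element may stem from its RNA or from the strand opposite it, which was not tested.

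The sequences of 6 snoRNA elements and of the U6 gene show these ends. They are RefSeq genome sequence of ASM294v3, written 5′ to 3′. The first group is 3 of the 4 H/ACA elements whose end lies on the opposite strand, printed from that strand (minus), with the ACA in capitals. They are snR5 at chr2:2266028-2266169, snR10 at chr3:992436-992602 and snR46 at chr3:1717920-1718087.
snR5: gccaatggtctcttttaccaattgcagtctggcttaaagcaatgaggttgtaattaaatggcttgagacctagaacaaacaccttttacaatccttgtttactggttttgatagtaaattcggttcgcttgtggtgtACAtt
snR10: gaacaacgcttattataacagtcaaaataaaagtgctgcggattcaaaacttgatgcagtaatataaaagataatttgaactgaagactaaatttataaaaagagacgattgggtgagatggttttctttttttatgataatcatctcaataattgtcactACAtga
snR46: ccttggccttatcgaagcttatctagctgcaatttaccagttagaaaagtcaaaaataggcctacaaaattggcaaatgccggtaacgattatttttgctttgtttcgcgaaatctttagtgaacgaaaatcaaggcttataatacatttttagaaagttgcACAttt

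For contrast, snR93 at chr2:3172781-3172923 is an H/ACA element with its end on the table strand (plus), again with ACA in capitals.
snR93: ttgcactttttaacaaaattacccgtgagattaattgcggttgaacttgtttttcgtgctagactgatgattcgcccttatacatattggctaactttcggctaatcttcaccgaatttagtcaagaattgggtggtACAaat

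The C/D elements with the highest wild-type levels were snR40 at chr1:431220-431301 and snoZ3 at chr1:527624-527713, both printed from the plus strand of the table. Capitals mark the D box and the C box, which at snoZ3 matches only the first 5 bases, TGATG.
snR40: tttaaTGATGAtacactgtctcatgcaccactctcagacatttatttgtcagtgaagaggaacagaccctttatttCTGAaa
snoZ3: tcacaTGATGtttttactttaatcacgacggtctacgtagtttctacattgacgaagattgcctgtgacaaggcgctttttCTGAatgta

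The U6 gene lies at chr1:2562276-2562419 on the minus strand. It is shown because it is split by an intron like that of a messenger RNA, which is in capitals and has its own element in the table.
U6: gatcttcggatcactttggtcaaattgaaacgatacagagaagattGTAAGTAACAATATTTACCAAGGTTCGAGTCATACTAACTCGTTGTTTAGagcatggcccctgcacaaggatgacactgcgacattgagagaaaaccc

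The 4 H/ACA elements with ACA on the opposite strand only were among the 5 highest of the class. Ranked by mean level over the 8 libraries, the 19 H/ACA elements began with snR5 (10.29), snR10 (9.13), snR46 (7.19), snR36 (6.62, ACA on both strands) and snR96 (6.52). The next was snR97 at 4.85, and the remaining 13 lay between 3 and 4.81. The link between the motif and the level was noticed after the values had been seen, so it is given as a description.

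**Figure D1:**
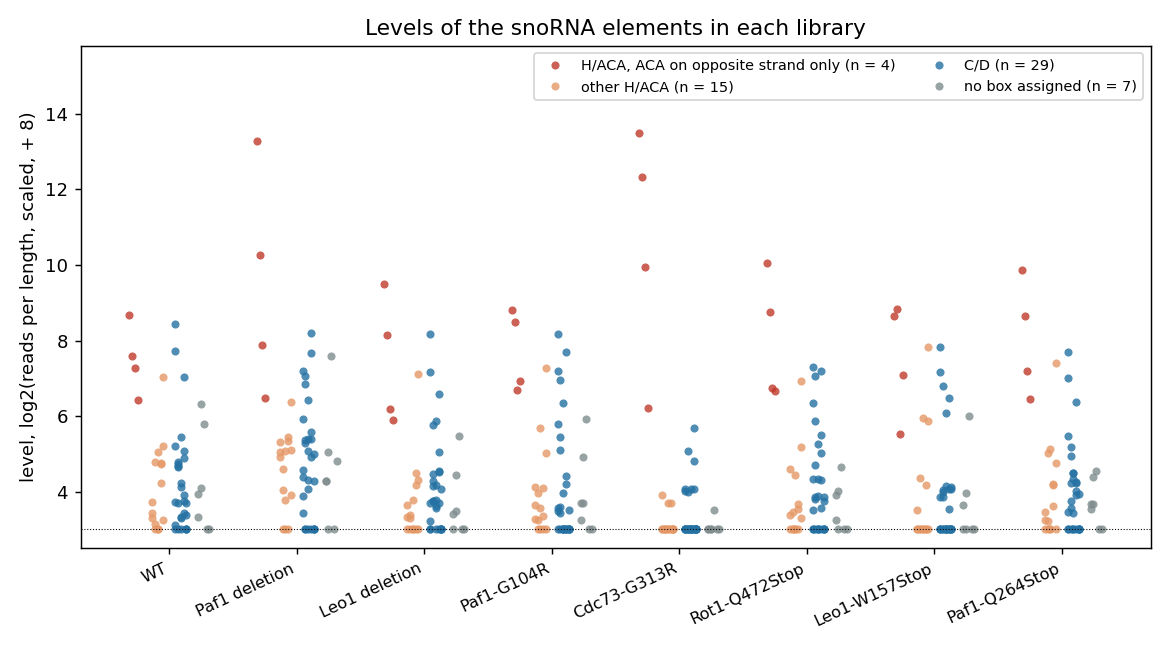
Deposited log2 level (vertical axis, floor at 3 shown as a dotted line) of each of the 55 snoRNA elements in the 8 libraries (horizontal axis), coloured by box class and by the strand of the ACA end. The red points are snR5, snR10, snR46 and snR96. The highest level is that of snR5, at 13.29 in Paf1 deletion and 13.48 in Cdc73-G313R. In Paf1 deletion snR46 (7.89) and snR96 (6.47) lie below the C/D element snoR56 (8.21).

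At snR5, the H/ACA element with most reads, there were 287 reads in wild type, 1510.5 in Paf1 deletion and 238.5 in Leo1 deletion, then 193 in Paf1-G104R and 2228 in Cdc73-G313R, followed by 296 in Rot1-Q472Stop, 78 in Leo1-W157Stop and lastly 430.5 in Paf1-Q264Stop. In the same order its levels were 8.67, 13.29, 9.49, 8.80, 13.48, 10.06, 8.65 and 9.86. Paf1 deletion and Cdc73-G313R thus stood more than 3 above the next library on the log2 scale. Their level ratios to wild type were 25.1 (22.1 to 28.6) and 28.7 (25.4 to 32.6), or 28.9 (25.5 to 32.9) and 198 (175 to 225) when rescaled. Rot1-Q472Stop, at 2.66 (2.25 to 3.14), Paf1-Q264Stop, at 2.31 (1.99 to 2.69), and Leo1 deletion, at 1.78 (1.49 to 2.12), were moderately higher. The intervals of Paf1-G104R and Leo1-W157Stop included 1.

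At snR10, an H/ACA guide known in budding yeast to be needed for normal processing of ribosomal RNA, the reads numbered 155 in wild type, 216 in Paf1 deletion and 108 in Leo1 deletion, then 182.5 in Paf1-G104R and 1185 in Cdc73-G313R, followed by 140.5 in Rot1-Q472Stop, 105 in Leo1-W157Stop and lastly 218 in Paf1-Q264Stop. Its level was 7.58 in wild type, between 8.13 and 8.84 in 5 mutants, but 10.26 in Paf1 deletion and 12.34 in Cdc73-G313R. All 7 mutants had ratios whose intervals lay above 1, from 1.49 (1.16 to 1.92) in Leo1 deletion to 6.66 (5.39 to 8.24) in Paf1 deletion and 28.3 (23.9 to 33.7) in Cdc73-G313R. When rescaled, the last 2 were 7.66 (6.21 to 9.48) and 195 (165 to 232).

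The other 2 elements of the set differed from this pattern. At snR46 the reads were 125 in wild type, 41 in Paf1 deletion and 26 in Leo1 deletion, then 50 in Paf1-G104R and 226 in Cdc73-G313R, followed by 33 in Rot1-Q472Stop, 9 in Leo1-W157Stop and lastly 77 in Paf1-Q264Stop. Its level ratio was 6.69 (5.35 to 8.39) in Cdc73-G313R and 1.57 (1.07 to 2.25) in Paf1 deletion, but 0.262 (0.117 to 0.513) in Leo1-W157Stop and 0.445 (0.280 to 0.684) in Leo1 deletion. When rescaled, it was 46.2 (37.0 to 57.9) in Cdc73-G313R, and the interval in Leo1 deletion included 1, at 0.708 (0.445 to 1.09). At snR96 the reads were 84 in wild type and 18, 26, 75, 19, 39, 38 and 55 in the mutants in the order given for snR5. Its levels stayed between 5.91 and 7.10, no difference reached 1, and the ratio in Cdc73-G313R was 0.837 (0.480 to 1.39), a difference of -0.23 that became 2.42 when rescaled and 1.21 with quantile normalization.

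Summed, the reads of snoRNA elements made up 0.0214% of the wild-type library, 0.168% in Paf1 deletion, 0.401% in Cdc73-G313R, with 0.0272% to 0.0380% among the remaining 5. The 4 H/ACA elements with ACA on the opposite strand and the other 51 differed in this. The share of the 4 was 0.0101% of reads in wild type, 14.8 times as large in Paf1 deletion (13.5 to 16.2) and 39.3 times as large in Cdc73-G313R (36.2 to 42.8). These sums rest mainly on snR5 and snR10, with snR5 alone holding 1510.5 of the 1785.5 reads in Paf1 deletion, and do not describe snR96. The share of the other 51 elements was 1.62 times as large as in wild type in Paf1 deletion (1.39 to 1.89) and 0.194 times in Cdc73-G313R (0.118 to 0.301). Of linear levels, these 51 took 0.143% in wild type and 0.0167% in Cdc73-G313R. The median ratio of linear levels over 1410 elements was 0.145 in that library, so a fall there was not particular to these 51 elements. Of all snoRNA reads, the 4 held 47.4% in wild type, 62.2% in Leo1 deletion, 54.0% in Paf1-G104R, 71.7% in Rot1-Q472Stop, 57.9% in Leo1-W157Stop and lastly 69.7% in Paf1-Q264Stop. In Paf1 deletion they held 89.1% (87.7% to 90.5%) and in Cdc73-G313R 99.4% (99.2% to 99.7%, exact binomial intervals). These 2 libraries were also those with the largest share of linear levels in ribosomal RNA elements, 28.7% and 60.02%, and the smallest read totals, 1192698 and 917880. Leo1-W157Stop came close to Paf1 deletion in both, at 26.1% and 1386956, while the 4 elements held 57.9% of its snoRNA reads. As a share of reads, ribosomal RNA elements took 2.44% in Paf1 deletion, 7.98% in Cdc73-G313R and 2.47% in Leo1-W157Stop. Whether this bears on the snoRNA values was not tested.

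**Figure D2:**
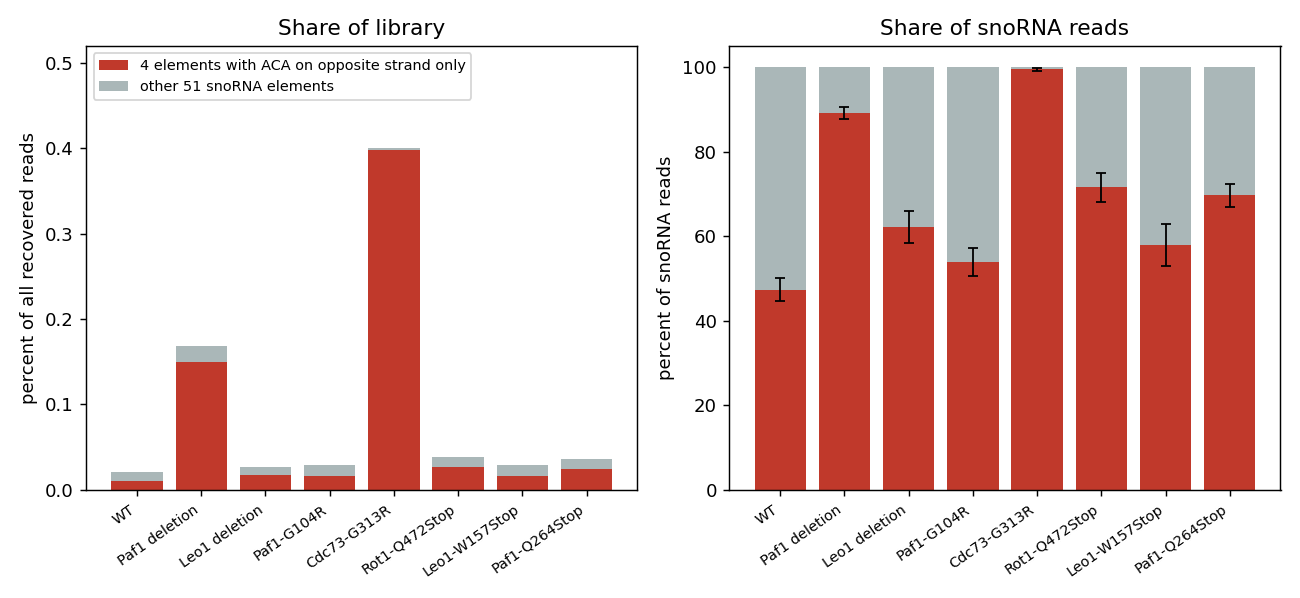
Left, percent of all recovered reads in snoRNA elements per library, split into the 4 H/ACA elements with ACA on the opposite strand only (red) and the other 51 (grey). Right, the same as percent of snoRNA reads, with 95% exact binomial intervals that cover counting error; the red part is 47.4% in wild type and 99.4% in Cdc73-G313R.

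Of the 29 C/D elements, 28 carry the D box on the table strand. The highest was snR40, a guide of ribose methylation, with 140 reads in wild type, 12 in Paf1 deletion and 55 in Leo1 deletion, then 72 in Paf1-G104R and 1 in Cdc73-G313R, followed by 24 in Rot1-Q472Stop, 25 in Leo1-W157Stop and lastly 54 in Paf1-Q264Stop. Its level was 8.43 in wild type and lower in all 7 mutants, by 0.24 to 1.24 on the log2 scale in 6 of them, though in Leo1 deletion it was higher by 0.41 when rescaled and by 0.33 with quantile normalization. In Cdc73-G313R it was 4.08. There the level ratio was 0.0264 (0.000664 to 0.150), where 37.9 reads would have matched the wild-type level, and the rescaled ratio was 0.182 (0.00459 to 1.03). In Paf1 deletion it was 0.409 (0.207 to 0.738). At snR40 the direction was thus the reverse of that at snR5 and snR10 in both libraries. It was not that of the C/D class in Paf1 deletion. There 11 of the 29 C/D elements were higher by at least 1 and 3 lower (7.58% and 5.13% of all elements). Their median difference was 0.63. The largest rise was at snoR56, from 9 to 25 reads, a ratio of 13.3 (5.99 to 32.3). In Cdc73-G313R 1 C/D element was higher and 10 were lower (0.779% and 17.0% of all elements).

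The snoZ3 element gave a similar picture, with 93 reads in wild type and 5, 29, 39, 1, 13, 17 and 36 in the mutants in the order given for snR5. The level ratios were 0.257 (0.0815 to 0.621) in Paf1 deletion and 0.0398 (0.000996 to 0.227) in Cdc73-G313R, the latter 0.275 (0.00688 to 1.57) when rescaled. It is the last of 5 C/D elements, snoZ8, snoZ7, snoZ5, snoZ4 and snoZ3, inside 1 long non-coding RNA, SPNCRNA.659 (chromosome 1, 526641 to 528541, plus strand). That host held 277 wild-type reads, of which 35.7% lay in the 5 members, which make up 23.2% of its length. Of the 99 reads in the members, 93 were at snoZ3, and snoZ4 had 0 in every library. The member reads in this host thus lay mostly at 1 member. In a second cluster, SPNCRNA.723 with snR41, snR70 and snR51b, 12.2% of 168.6 wild-type reads lay in the members, which make up 32.03% of the length.

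Within that cluster, the C/D element snR41 had a higher level than wild type in each of the 7 mutants. Its reads were 8.6 in wild type, 9.8, 9.4, 31, 3, 21.4, 12.4 and 6.4 in the mutants in the order given for snR5. The ratio was highest in Rot1-Q472Stop at 6.02 (2.64 to 14.9) and in Paf1-G104R at 5.63 (2.61 to 13.4). Paf1 deletion had 5.31 (1.94 to 14.8) and Leo1-W157Stop 4.85 (1.87 to 13.0), while the other 3 intervals included 1. Its reads were partly fractional, and their rounding adds to the error. The remaining C/D elements of high level, snr79, snoR47 and snoR69b, and snoR02, to which no class was given, had 55.2, 15, 8 and 20 wild-type reads. At snr79 the ratio lay between 0.336 (0.105 to 0.833) in Cdc73-G313R and 1.60 (1.08 to 2.38) in Paf1-G104R, and the difference of -1.37 in Cdc73-G313R became 1.21 when rescaled and 0.30 with quantile normalization. At snoR02 it was 4.06 (2.0 to 8.16) in Paf1 deletion but 0.308 (0.0765 to 0.919) in Paf1-Q264Stop, and in Cdc73-G313R, with 0.4 reads, its upper bound was 0.749. When rescaled, both of these lower values had intervals that included 1, with 0.371 (0.0922 to 1.11) in Paf1-Q264Stop and an upper bound of 5.17 in Cdc73-G313R. At snoR47 every interval included 1, with 0 reads in Cdc73-G313R. At snoR69b every interval included 1.

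Among H/ACA elements with ACA on the table strand, snR36 was the highest. It had 103 reads in wild type, 13 in Paf1 deletion and 51 in Leo1 deletion, then 75 in Paf1-G104R and 0 in Cdc73-G313R, followed by 37 in Rot1-Q472Stop, 50 in Leo1-W157Stop and lastly 87 in Paf1-Q264Stop. At the wild-type level Cdc73-G313R would have held 27.8 reads, and the upper bound of its level ratio was 0.135, or 0.931 when rescaled. In the other libraries the ratio ranged from 0.603 (0.311 to 1.08) in Paf1 deletion to 1.76 (1.23 to 2.5) in Leo1-W157Stop.

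**Figure D3:**
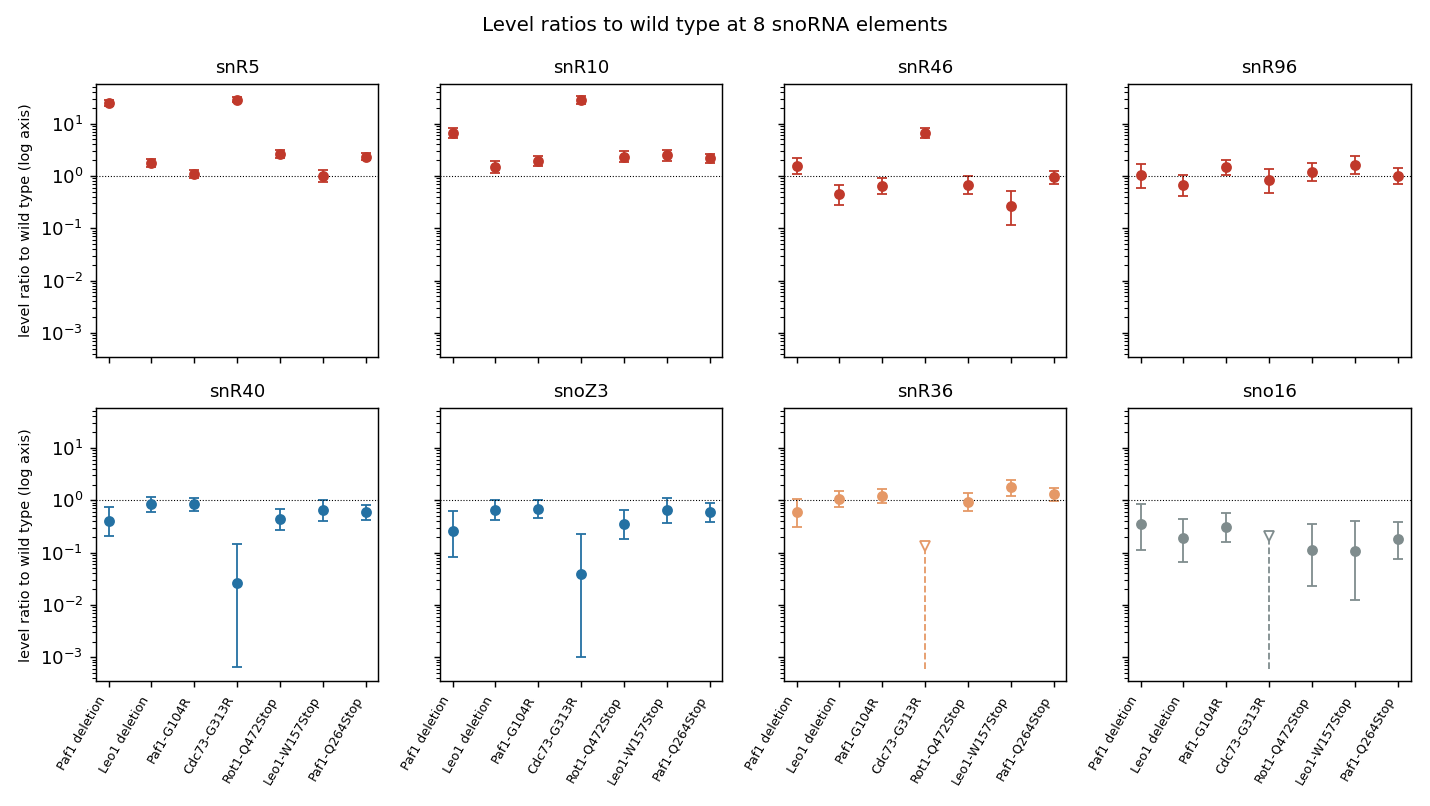
Level ratio to wild type (vertical log axis) in each of the 7 mutants (horizontal axis) with 95% counting intervals, for the 4 elements with ACA on the opposite strand only (red), the C/D elements snR40 and snoZ3 (blue), snR36 (orange) and sno16 (grey). Open triangles mark the upper bound where the mutant had 0 reads; Cdc73-G313R lies at 28.7 for snR5 and at 0.0264 for snR40.

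No snoRNA element was higher by at least 1 in 6 or more of the 7 mutants, a pattern that 0.150% of all elements showed. Being lower by at least 1 in 6 or more was found at sno16 and snR33, against 1.24% of all elements. At sno16, an element of 187 nt with no class given, reads numbered 68 in wild type and 5, 6, 13, 0, 3, 2 and 8 in the mutants in the order given for snR5, and all 7 ratios had intervals below 1, the highest 0.351 (0.111 to 0.861) in Paf1 deletion. In Cdc73-G313R the upper bound was 0.206, or 1.42 when rescaled. It lies within a long non-coding RNA of the same strand, SPNCRNA.1597, with 1349 wild-type reads. At snR33, an H/ACA element, 8 wild-type reads stood against 0 in 6 mutants and 2 in Paf1-Q264Stop. Only the interval of Paf1-G104R excluded 1 there, and in the other 5 mutants at 0 a difference was not detectable at this depth. No reads were recovered from snoZ4, snoR54b and snR91 in any library.

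Over all 55 snoRNA elements with no filter, a difference of at least 1 was counted in each direction and set beside all 17962 elements. In Paf1 deletion 19 were higher and 6 lower, with 7.58% and 5.13% of all elements so. Leo1 deletion had 2 higher and 6 lower (1.36% and 5.27% of all elements), Paf1-G104R 1 and 6 (1.05% and 2.24%), and Cdc73-G313R 4 and 20 (0.779% and 17.0%). Rot1-Q472Stop had 4 and 9 (2.29% and 5.26%), Leo1-W157Stop 3 and 8 (2.18% and 7.23%), and Paf1-Q264Stop 2 and 2 (0.952% and 2.45%). Median differences were lowest at -0.42 in Cdc73-G313R and highest at 0.62 in Paf1 deletion, against -0.20 and 0.00 for all elements. The former moved to -1.68 over elements with a mean level of at least 4 and to -1.57 with a pseudocount of 1.

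Many of these counts rest on very few reads: in an element of 100 nt, a single read against none makes a difference of 1.12 in Paf1 deletion and 0.93 in Cdc73-G313R. All elements had a median length of 397 nt against 100 nt for the snoRNA elements, so a single read moves a typical element less. Counted only where the interval of the ratio also excluded 1, Paf1 deletion kept 11 higher and 3 lower (4.57% and 3.10% of all elements) and Cdc73-G313R 3 and 9 (0.445% and 13.4%). The counts were 0 and 4 in Leo1 deletion (0.696% and 4%), 1 and 4 in Paf1-G104R (0.657% and 1.5%), and 3 and 4 in Rot1-Q472Stop (1.36% and 3.88%). They were 2 and 3 in Leo1-W157Stop (1.11% and 4.82%) and 2 and 2 in Paf1-Q264Stop (0.546% and 1.85%). Among the 25 snoRNA elements with a mean level of at least 4, 9 were higher and 4 lower in Paf1 deletion, against 10.9% and 14.9% of the 4142 elements of that level. Of the same 25, 17 were lower in Cdc73-G313R, where 54.9% of the 4142 were lower too. When rescaled, that library held 11 snoRNA elements higher and 15 lower. Its values at snR40, snoZ3, snR36 and sno16 stayed below wild type when rescaled, with quantile normalization and with a total without ribosomal RNA, but of their rescaled intervals only that of snR36 excluded 1.

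Elements of other classes that overlap a snoRNA member by at least 40 nt allow both strands to be compared. On the opposite strand, 15 such elements at 9 members had a median of 416 wild-type reads, and on the same strand 36 elements at 30 members had 17.6. These reads are not per length, so levels are given for single sites. The wild-type level was 5.78 at snoR02 and 9.33 at the 3′ untranslated region of alg3 opposite it, 4.78 at sno20 and 9.24 at SPBC1921.04c, and 3 at sno52 and 8.31 at the 3′ untranslated region of taf9. The opposite element was also higher at snr79, snR92 and snR191. At snR36, snR96 and snR97 the member was higher. The 5′ untranslated region of tim17, which covers 173 nt of the opposite strand of snR96, held 0 wild-type reads while snR96 held 84. The longer elements extend past the members, and their reads were not placed within them.

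For each of the 9 members, the shortest element on the opposite strand was set beside it. In Paf1 deletion 6 of the 9 were higher by at least 1 and 0 lower, while 1 of the 9 members was higher and 1 lower, against 7.58% and 5.13% of all elements. In Cdc73-G313R 5 of the 9 were higher and 1 lower, while 0 members were higher and 7 lower, against 0.779% and 17.0% of all elements. Among elements with a mean level of at least 4, 10.9% were higher in Paf1 deletion and 54.9% lower in Cdc73-G313R. SPNCRNA.847, opposite the unclassed snR191, went from 416 reads in wild type to 1101 in Cdc73-G313R (a difference of 3.06), while snR191 itself went from 6 to 0. SPNCRNA.1487, opposite snR92, went from 404 to 883 (2.88), and snR92 from 14 to 1. The intervals of snR191 and snR92 in Cdc73-G313R included 1, with upper bounds of 3.14 and 1.74. The interval of snR97 there included 1 too. At the wild-type level 1.62 reads would have been held at snR191 and 3.79 at snR92. At snr79, also counted as lower there, the rescaled ratio was 2.32 (0.725 to 5.75).

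**Figure D4:**
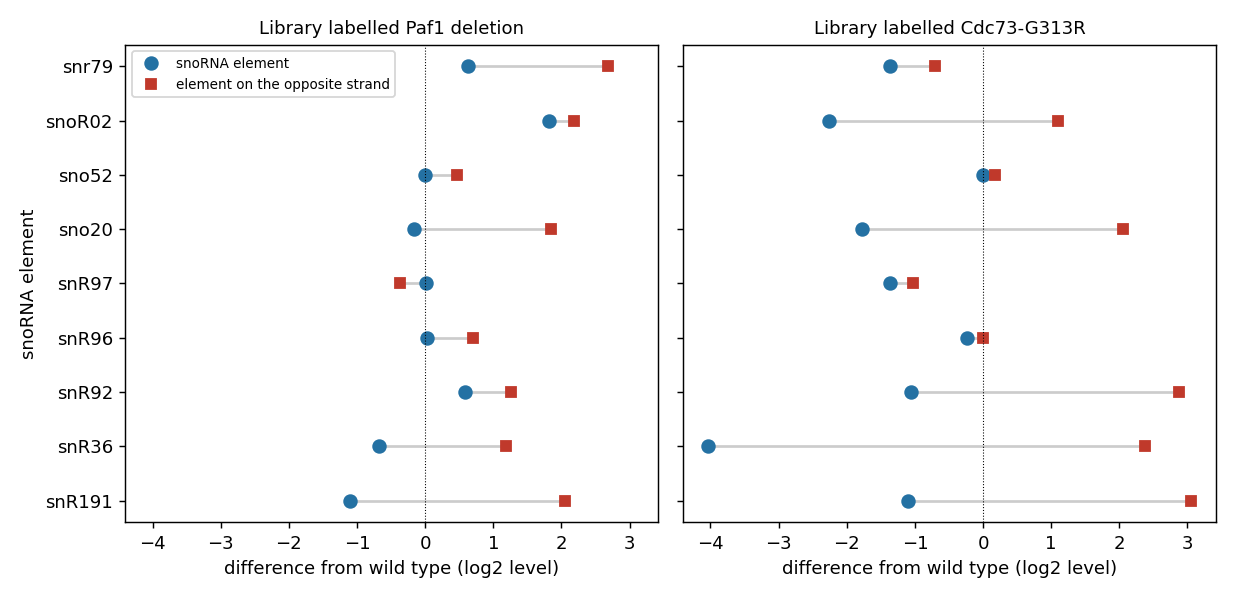
Difference from wild type on the log2 scale (horizontal axis) at 9 snoRNA elements (blue circles) and at the shortest element of another class on their opposite strand (red squares), in Paf1 deletion and Cdc73-G313R. In Cdc73-G313R 5 of the 9 red squares lie at 1 or more, up to 3.06 opposite snR191, and no blue circle lies above 0.

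Besides snR10, RNAs with a role in cutting ribosomal RNA had few reads. U14, a C/D element, had 10 reads in wild type and 15 in Paf1 deletion, a ratio of 7.17 (3.01 to 17.8), and its other 6 intervals included 1. U17, annotated as snR30, had 12 wild-type reads and between 0 and 5 per mutant, and every interval included 1. At snu3 and snu32, the U3 genes, wild type had 6.5 and 4.5 reads and Paf1 deletion 12.5 and 11.5, with ratios of 8.19 (2.97 to 24.6) and 10.5 (3.37 to 38.6). Reads of both were fractional, so the 2 values may share reads. The longest exact complement of a snoRNA to ribosomal RNA on the table strand was 17 nt, at snR41, against 18 nt for the smallest RNA taken from the gels.

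Of the elements of the spliceosome, U1, U5 and U6 were higher than wild type in most mutants on the deposited scale, while U2 and U4 were not. The U1 element (snu1, chromosome 2, 3019819 to 3020472, plus strand) had 73 reads in wild type, 130 in Paf1 deletion and 102 in Leo1 deletion, then 73 in Paf1-G104R and 1 in Cdc73-G313R, followed by 131 in Rot1-Q472Stop, 118 in Leo1-W157Stop and lastly 107 in Paf1-Q264Stop. Its levels in that order were 4.91, 7.61, 6.21, 5.46, 3.19, 6.78, 7.10 and 5.85. Wild type had thus the lowest level but for Cdc73-G313R. The 6 ratios above 1 ran from 1.63 (1.16 to 2.29) in Paf1-G104R to 8.51 (6.34 to 11.5) in Paf1 deletion. In Cdc73-G313R it was 0.0507 (0.00127 to 0.291), or 0.350 (0.00874 to 2.01) when rescaled.

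U6, whose RNA forms part of the catalytic core, had 47 reads in wild type, 62 in Paf1 deletion and 20 in Leo1 deletion, then 42 in Paf1-G104R and 2 in Cdc73-G313R, followed by 43 in Rot1-Q472Stop, 29 in Leo1-W157Stop and lastly 53 in Paf1-Q264Stop. Its ratio was 6.30 (4.24 to 9.41) in Paf1 deletion. Rot1-Q472Stop had 2.36 (1.52 to 3.65), Leo1-W157Stop had 2.24 (1.36 to 3.64) and Paf1-Q264Stop had 1.73 (1.15 to 2.63). In Cdc73-G313R it was 0.157 (0.0185 to 0.601), or 1.09 (0.128 to 4.15) when rescaled. Some of the reads lay in its intron, an element of 51 nt, with 11 in wild type and 0, 2, 5, 0, 6, 0 and 9 in the mutants in the order given for snR5. These numbers are too small to compare the intron between libraries.

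U2, which pairs with the branch site of introns, had 127 reads in wild type and 1 in Cdc73-G313R. Its levels were 5.95 in wild type and 5.66, 5.66, 5.63, 3.26, 6.34, 6.15 and 6.24 in the mutants in the order given for snR5, so that Cdc73-G313R stood apart from the rest. The intervals of its ratio included 1 in 6 mutants, and in Cdc73-G313R it was 0.0291 (0.000732 to 0.165), or 0.201 (0.00505 to 1.14) when rescaled. Rescaled intervals of U2 lay above 1 in Rot1-Q472Stop, at 1.63 (1.20 to 2.21), Leo1-W157Stop, at 1.54 (1.05 to 2.20), and Paf1-Q264Stop, at 1.52 (1.16 to 1.98). U4 had 84 reads in wild type and 21, 17, 34, 7, 12, 17 and 31 in the mutants. Its ratio lay below 1 with its whole interval in 5 of the 7, the lowest being 0.308 (0.120 to 0.663) in Cdc73-G313R. There the difference of -0.997 became 0.86 when rescaled and 0.06 with quantile normalization. When rescaled, the whole interval of U4 stayed below 1 only in Rot1-Q472Stop, at 0.442 (0.220 to 0.813). U5 had 4 reads in wild type and 14 in Paf1 deletion, a ratio of 16.7 (5.25 to 69.8) on few reads. In Paf1 deletion 5 of the 7 elements classed snRNA were higher by at least 1 and 0 lower, the exceptions being U2 and U4, against 7.58% and 5.13% of all elements. In Cdc73-G313R 3 were lower and 0 higher, against 17.0% and 0.779% of all elements.

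**Figure D5:**
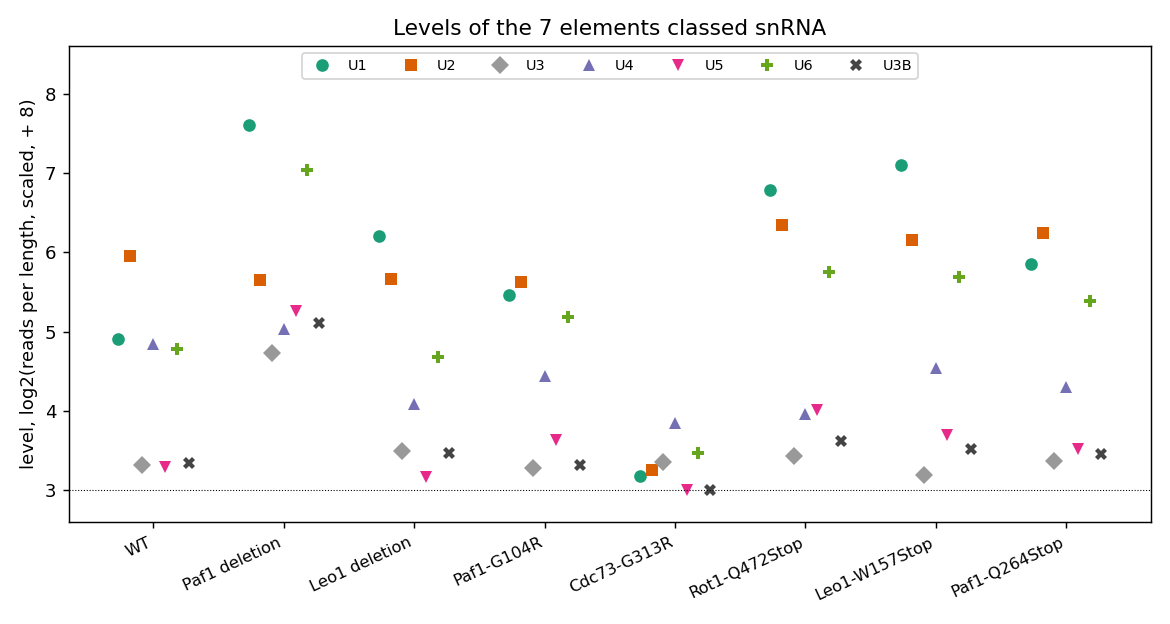
Deposited log2 level (vertical axis, floor at 3 shown as a dotted line) of the 7 elements classed snRNA in the 8 libraries (horizontal axis). U1 and U6 are the highest in Paf1 deletion, at 7.61 and 7.03, and all 7 lie below 4 in Cdc73-G313R.

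Genes for proteins of these particles and of their processing were followed in 3 lists, at levels that were mostly near the floor. All 8 listed genes of the snoRNP core were found, none had a mean level of at least 4, and 1, nop10 in Cdc73-G313R, was lower by at least 1, where 17.0% of all elements were. Its median difference was -0.51, and those of gar1 and nhp2 were -0.17 and -0.11. Of 20 snRNP core genes, 1 was higher and 1 lower in Paf1 deletion (7.58% and 5.13% of all elements) and 4 were lower in Cdc73-G313R (17.0%), shares near those of all elements. The largest median difference was at lsm6, of the ring that binds the end of U6, with a median difference of -1.72 over the 7 mutants and a range of -3.69 to -0.95, followed by usp102 (-0.39) and lsm4 (-0.36). Of 15 processing genes, 3 were higher and 1 lower in Paf1 deletion and 1 each in Cdc73-G313R, beside 7.58% and 5.13%, and 0.779% and 17.0%, of all elements. In this list rrp40, a subunit of the RNA exosome, had a median difference of -1.18 (-3.73 to -0.19), and pcf11, a termination factor, one of 0.33 (-0.18 to 1.38), while sen1 had -0.21.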

How the data were processed

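Small RNA of 18 to 28 nt was taken from gels by size, per the labels' protocols, and each strain gave 1 library. CASAVA 1.8 and Bowtie 0.9.9.1 are named, per the submitters' processing notes. The way reads were counted, the annotation and the build were not given in the sources used here. Elements of the genome have log2 values in the deposited table. As its values show, each is the log2 of a level plus 8, where the level is reads per length scaled to a common total of 907489 in every library. No column was left unmapped.

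The value of 1 read was estimated per library by least squares, and reads were recovered from it. Between 79.7% and 89.2% of values came out whole within 0.05, per library. Fractional reads were rounded for intervals. A level ratio has a 95% Clopper-Pearson interval, conditional on the sum of both read numbers. A difference counts from 1 on the deposited log2 scale, without a filter. The procedure was tested on simulated data. Python 3.11.15, numpy 2.4.6, pandas 2.3.3, scipy 1.17.1 and matplotlib 3.10.9 were used.

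Named are all snRNA members, the 12 snoRNA members with the highest mean level, those at least 1 higher or lower in at least 6 of 7 mutants, up to 4 members without reads, and up to 3 genes per list with the largest median difference. Other members are named as examples of a motif, host, role or difference and were chosen after their values were seen. Members and lists were chosen with earlier results of these data known. Other pseudocounts, level filters, scalings, overlaps and denominators were tried.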

Additional observations from a re-analysis of the deposited data

How the results depend on the processing

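Counts are snoRNA elements unless named otherwise, and the cause of each change was not tested. Where the interval also had to exclude 1, Paf1 deletion had 11 higher and 3 lower, Leo1 deletion 0 higher, Cdc73-G313R 9 lower, Rot1-Q472Stop 4 lower and Leo1-W157Stop 3 lower. With a mean level of at least 4, fewer elements entered: 9 were higher in Paf1 deletion and 1 in Leo1 deletion, with 5 snRNA pairs of element and mutant higher and 0 snRNP core gene pairs higher. With at least 5, Paf1 deletion had 5 higher and 2 lower, Leo1 deletion 0 and 1, with lower counts of 6 in Cdc73-G313R, 3 in Rot1-Q472Stop, 0 in Paf1-G104R, and 1 each in Leo1-W157Stop and Paf1-Q264Stop, and 5 snRNA pairs higher. A pseudocount of 1 gave 5 higher and 16 lower in Leo1 deletion, 7 and 15 in Paf1-G104R, 34 lower in Cdc73-G313R, 8 and 18 in Rot1-Q472Stop, 5 and 23 in Leo1-W157Stop, 4 and 12 in Paf1-Q264Stop, and 13 and 8 snRNA pairs. One of 32 gave 6 and 2 in Paf1 deletion, 0 and 1 in Leo1 deletion, 0 lower in Paf1-G104R, 7 lower in Cdc73-G313R, 3 lower in Rot1-Q472Stop, 2 lower in Leo1-W157Stop, 1 and 1 in Paf1-Q264Stop, and 4 and 1 snRNA pairs. Quantile normalization gave 8 higher in Cdc73-G313R, 5 in Leo1 deletion, 7 in Leo1-W157Stop and 2 in Paf1-G104R, 5 lower in Rot1-Q472Stop and 1 in Paf1-Q264Stop, 1 snRNA pair lower, and a reversed 0.30 at snr79 in Cdc73-G313R. Recentring, which adds 1 constant to every log2 difference of a library and so lifts elements at the floor above wild type, gave 7 and 1 in Leo1 deletion, 34 and 4 in Cdc73-G313R, 5 lower in Rot1-Q472Stop, 8 and 5 in Leo1-W157Stop, and 14 and 0 snRNA pairs. Its values for U1 (0.20), U6 (0.60), snr79 (0.55) and snR33 (0.68) in Cdc73-G313R were reversed, which at U1, U6 and snR33, with 0 to 2 reads, is no sign of a higher level. Dividing linear levels by their median ratio instead, also chosen after seeing the data, reversed U6 (0.086) and snr79 (1.21) there, and gave 7 higher in Leo1 deletion, 11 in Cdc73-G313R and 6 in Leo1-W157Stop, with 1 snRNA pair lower. The snoRNA median of -0.42 in Cdc73-G313R was -1.68 at a mean level of at least 4, -1.57 with a pseudocount of 1 and 1.496 when recentred. A total without ribosomal RNA gave 3 lower in Paf1 deletion, 5 lower in Rot1-Q472Stop and 6 higher in Leo1-W157Stop.

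Together, snoRNA and snRNA elements took 0.402% of reads in Cdc73-G313R, and 0.437% of reads outside ribosomal RNA. Without the member with most reads, the share was 0.0223% in wild type, 0.0641% in Paf1 deletion and 0.0254% in Leo1 deletion, then 0.0304% in Paf1-G104R and 0.159% in Cdc73-G313R, followed by 0.0364% in Rot1-Q472Stop, 0.0353% in Leo1-W157Stop and lastly 0.0316% in Paf1-Q264Stop. Without snR5, snR10, snR46 and snR96, a choice made after seeing the data, it was 0.0166%, 0.0411%, 0.0186%, 0.0206%, 0.00363%, 0.0250%, 0.0273% and 0.0205% in that order, and 1 element was higher in Cdc73-G313R, 2 in Rot1-Q472Stop and 0 in Paf1-Q264Stop. Where elements had to cover the whole member, the median of opposite elements was 1384 wild-type reads. No paired analysis was possible because each strain has 1 library. For the same reason no library could be left out of its group, and depth limits members of few reads most in Paf1 deletion, where 1 read in 100 nt makes a difference of 1.12.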
